A study of Homo sapiens with 8 samples.

Results

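TIA1 peaks that lay close to an RBFOX2 peak without touching it were examined in crosslinking maps of HEK293T cells, a human line derived from embryonic kidney that carries SV40 large T antigen. These adjacent TIA1 peaks were chosen by position: a TIA1 peak had to share no base with any RBFOX2 peak on its strand and to have an RBFOX2 peak on that strand with at most 1000 bases between their edges. Of 3215 TIA1 peaks, 359 met this rule, or 11.2% (95% Clopper-Pearson interval 10.1 to 12.3%, counting error only). A further 773 TIA1 peaks overlapped an RBFOX2 peak, and 2083 lay farther away. The presence of both peaks and the gap between them were thus selected on, and their values are given as a description.

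In eCLIP, the assay used, ultraviolet light joins proteins to the RNA they touch, an antibody recovers the complexes, and their RNA is sequenced beside an input that skips the antibody step. For TIA1 and for RBFOX2 there were 2 clip and 2 input libraries, 8 in all, from cells given 600 mJ of light. The clip libraries of both proteins were recovered with an antibody to the HA tag, but the tagged construct, its promoter and its level are not given in the sources used here, and a protocol shared by all 8 libraries also names beads bound to TIA1. No other treatment was named for any group. The labels call the replicates biological at one point and technical at another, and APOBEC and SLBP, also named in the design, were not analysed here. Each protein has a single peak list that joins its replicates, so no spread between libraries can be given, the depth is unknown, and no test across replicates was possible. The log2 fold of a peak, read as clip over input, and its −log10 p are the authors' own values, and only peaks with a log2 fold of 3 or more are in the lists.

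TIA1 is an RNA-binding protein with affinity for U-rich RNA. In the nucleus it binds introns just downstream of donor splice sites and helps recruit the U1 snRNP, and in the cytoplasm it represses translation and gathers in stress granules. RBFOX2 regulates splicing through the element GCAUG and is known for acting by position, favouring an exon from the downstream intron and often skipping it from the upstream intron. Where peaks of both proteins sit side by side on an RNA, the order along the transcript and the gap between them are therefore the basic descriptors. Genes, exons, introns and sequence motifs were not analysed here, since the positions are in hg19 and no hg19 genome or annotation was used, so each site is named by its position.

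Most adjacent TIA1 peaks lay within a short distance of RBFOX2. The gap had a median of 97 bases (interquartile range 23 to 255.5). In 184 peaks, 51.3% (46.0 to 56.5%), it was at most 100 bases, and in 285, 79.4% (74.8 to 83.5%), at most 300. Gaps over 500 bases were found in 49 peaks, 13.6% (10.3 to 17.6%). The number of TIA1 peaks thinned quickly with distance, since the next 1000 bases, from 1001 to 2000, held only 37. On the opposite strand 12 TIA1 peaks had an RBFOX2 peak within 1000 bases and no overlap, against the 359 on the same strand. None of the 359 (0) also had an opposite-strand RBFOX2 peak in that range. Which strands are transcribed at these places was not examined, so the count of 12 is no measure of how close peaks would lie without any relation.

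TIA1 was found on either side of RBFOX2, somewhat more often downstream. It lay upstream of the nearest RBFOX2 peak, in transcript direction, in 167 cases, 46.5% (95% Clopper-Pearson interval 41.3 to 51.8%), and downstream in 192, 53.5% (48.2 to 58.7%). No peak (0) was tied between both sides. The interval of the upstream share includes equal numbers, and because neighbouring peaks are not independent it is narrower than it should be. With peaks under 20 bases left out of both lists the upstream share was 42.7% of 279 peaks, and its interval, 36.8 to 48.7%, does not include equal numbers. With TIA1 peaks within 50 bases of each other joined, and RBFOX2 peaks likewise, 89 of 197 adjacent sites lay upstream, 45.2% (38.1 to 52.4%). Counted by locus, where peaks of either list at most 1000 bases apart on a strand form 1 locus, the 359 peaks fell into 233 loci. TIA1 lay only upstream in 93 of these, only downstream in 119 and on both sides in 21.

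The gap differed little with side. Its median was 100 bases upstream (interquartile range 23 to 291.5) and 90.5 bases downstream (23.5 to 230). From 1 to 10 bases there were 24 upstream and 23 downstream peaks, and from 11 to 50 bases 30 and 41. From 51 to 100 bases there were 24 and 26, from 101 to 200 bases 25 and 32, and from 201 to 300 bases 18 and 26. From 301 to 500 bases there were 11 and 14, and from 751 to 1000 bases 8 and 9. Downstream peaks thus held a small majority in most ranges. The range from 501 to 750 bases went the other way most clearly, with 21 upstream and 11 downstream peaks. These 32 peaks came from only 20 loci.

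**Figure D1:**
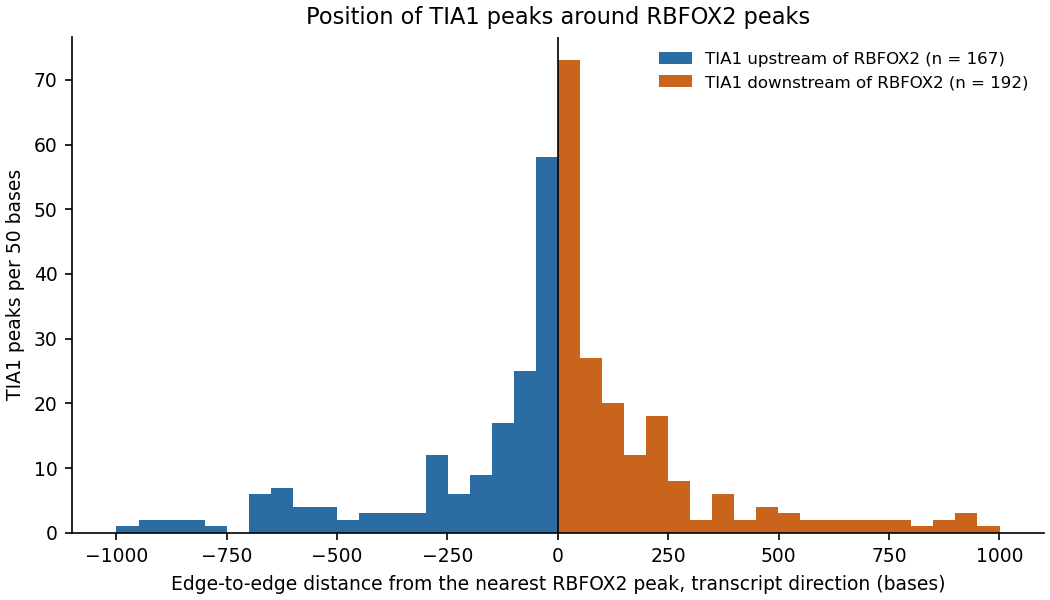
Number of adjacent TIA1 peaks per 50 bases (y axis) against the edge-to-edge distance in bases from the nearest RBFOX2 peak (x axis, transcript direction), with 167 peaks upstream in blue and 192 downstream in orange. Both sides peak at the shortest gaps and thin out over the first 300 bases.

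In 16 cases the TIA1 peak began at the base next to the end of an RBFOX2 peak, a gap of 0, with 6 upstream and 10 downstream. The clearest was on chromosome 7 (minus strand), where the RBFOX2 peak at 26240279 to 26240299 stood at a log2 fold of 3.27 and a −log10 p of 49.9. A TIA1 peak at 26240250 to 26240278 abutted its downstream edge, with a log2 fold of 3.44 and a −log10 p of 67.2. Another at 26240300 to 26240319 abutted its upstream edge, with 3.26 and 60.0. A pair of overlapping TIA1 peaks filled the RBFOX2 interval exactly, with log2 folds of 3.39 and 3.26, so TIA1 formed an unbroken run across and beyond the RBFOX2 peak. On the upstream side that run went on to 26240369 through peaks with log2 folds of 3.72 each.

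The other abutting peaks of highest −log10 p showed the same arrangement in part. On chromosome 1 (plus strand), TIA1 at 16174455 to 16174496 (log2 fold 3.58, −log10 p 30.1) followed an RBFOX2 peak at 16174375 to 16174454 (3.60, 27.9) that 3 overlapping TIA1 peaks also covered. Also on that strand, TIA1 at 226250430 to 226250491 (3.26, 18.0) followed a 9-base RBFOX2 peak at 226250421 to 226250429 (3.14, 10.6), which itself overlapped TIA1. On chromosome 12 (minus strand), TIA1 at 111180539 to 111180573 (3.07, 15.6) lay downstream of RBFOX2 at 111180574 to 111180691 (3.16, 42.0), and no other TIA1 peak lay within 1000 bases. This last site held a TIA1 edge against an RBFOX2 edge with no shared base at the locus.

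The 5 sites named for the smallest gaps above 0 had gaps of 1 or 2 bases. Further adjacent peaks with a gap of 2 bases are not named, since ties were ordered by −log10 p. On chromosome 1 (plus strand), TIA1 at 174969227 to 174969259 showed a log2 fold of 3.71 and lay 1 base downstream of an RBFOX2 peak with 3.13. On chromosome 2 (plus strand), TIA1 at 231577588 to 231577638 had 3.55 and lay 1 base upstream of RBFOX2 with 4.07. On chromosome 12 (minus strand), TIA1 at 133202339 to 133202356 had 3.10 and lay 1 base upstream of RBFOX2 with 3.07. At these 3 sites the RBFOX2 peak also overlapped another TIA1 peak. On chromosome 17 (minus strand), TIA1 at 20946293 to 20946361 had 3.94 and lay 1 base upstream of RBFOX2 with 3.18, and no TIA1 peak overlapped RBFOX2 there. On chromosome 5 (plus strand), TIA1 at 92919710 to 92919816 had 3.23 and lay 2 bases upstream of RBFOX2 with 3.66. That RBFOX2 peak, too, overlapped another TIA1 peak.

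At the other end of the rule, the widest gap inside the limit was 1000 bases, for a 15-base TIA1 peak on chromosome 8 (plus strand) at 145065368 to 145065382, with a log2 fold of 3.23 and a −log10 p of 3.67. The next 4 had gaps of 991 (chromosome 12, 123465265 to 123465294, log2 fold 3.01), 929 (chromosome 20, 306219 to 306275, 3.20), 928 (chromosome 1, 19471343 to 19471373, 3.47) and 925 bases (chromosome 2, 43451725 to 43451839, 3.72). Just outside the limit, 5 TIA1 peaks had gaps from 1012 to 1035 bases and log2 folds from 3.07 to 4.45. The limit therefore cut through a sparse range, and peaks on either side of it had overlapping folds.

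Many adjacent peaks belonged to places where TIA1 and RBFOX2 also met directly. For 170 of them, 47.4% (42.1 to 52.7%), the nearest RBFOX2 peak overlapped another TIA1 peak. Within 1000 bases, 200 peaks, 55.7% (50.4 to 60.9%), had a TIA1 peak that overlapped RBFOX2. When TIA1 peaks within 50 bases of each other were joined, 95 adjacent peaks, 26.5% (22.0 to 31.3%), became part of a TIA1 site that overlapped RBFOX2, so they were flanks of a shared site. The other 264 were not. Flanks had a median gap of 18 bases (interquartile range 4 to 48.5), and the rest 171 bases (56 to 356). All 49 gaps over 500 bases were among the rest. The short gaps of flanks follow from the joining distance that defines them. The upstream share was 44.2% (34.0 to 54.8%) in flanks and 47.3% (41.2 to 53.6%) in the rest.

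Flanks and the rest had similar folds, with a median log2 fold of 3.44 (interquartile range 3.22 to 3.69) against 3.40 (3.19 to 3.67). The median −log10 p was 11.4 in flanks and 8.32 in the rest. At 112 of the 233 loci no TIA1 peak overlapped RBFOX2, and 121 loci held at least 1 that did.

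The simplest arrangement, a single TIA1 peak and a single RBFOX2 peak with nothing else within 1000 bases, occurred at 59 loci. TIA1 lay upstream in 26 and downstream in 33, with a median gap of 104 bases (interquartile range 21.5 to 254.5). The median log2 fold was 3.39 for TIA1 and 3.36 for RBFOX2, and TIA1 had the higher value in 32 of the 59. The highest TIA1 value of these pairs was on chromosome 15 (minus strand), at 77363257 to 77363321, with a log2 fold of 4.07, lying 38 bases downstream of RBFOX2 with 3.43. On chromosome X (plus strand), TIA1 at 135579536 to 135579593 had 4.03 and lay 11 bases downstream of RBFOX2 with 3.46. These single pairs had gaps like those of all adjacent peaks, so the short gaps were not limited to crowded loci.

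Several TIA1 peaks often shared an RBFOX2 neighbour. The 359 peaks had 244 nearest RBFOX2 peaks, of which 174 served 1 TIA1 peak, 46 served 2 and 24 served more. Peaks that share a neighbour are not separate events. Of the 233 loci, 159 held 1 adjacent peak, 47 held 2, and 4 loci held at least 5, with 28 peaks in all.

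The locus with most adjacent peaks was on chromosome 19 (plus strand), from 54965609 to 54969137, with 10 adjacent TIA1 peaks, 1 that overlapped RBFOX2, 7 farther than 1000 bases and 4 RBFOX2 peaks. The RBFOX2 peak at 54967518 to 54967543 (log2 fold 3.34) was nearest to 7 of them. Upstream of it stood 5 abutting TIA1 peaks from 54967332 to 54967424, whose log2 folds were 3.25, 3.65, 3.65, 4.02 and 3.99 in the direction of the transcript. Their −log10 p went from 27.1 to 11.5 over the same span. The run lay between RBFOX2 peaks, since another at 54967170 to 54967186 ended 145 bases before it. The first of the 5 was counted as upstream by its smaller gap, 124 bases, to the peak at 54967518. Downstream of the RBFOX2 peak at 54967518 to 54967543 were 2 abutting TIA1 peaks from 54967828 to 54967964 with 3.27 and 3.53. Another 3, from 54966585 to 54966736, ended against an RBFOX2 peak at 54966737 to 54966746 with log2 folds of 3.04, 3.29 and 3.30. The highest log2 fold of the locus, 4.37, belonged to the TIA1 peak at 54967504 to 54967523 that overlapped RBFOX2.

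On chromosome 21 (plus strand), all 7 TIA1 peaks of a locus lay downstream of the RBFOX2 peak at 47412078 to 47412103, with gaps from 24 to 617 bases. The RBFOX2 peak had a log2 fold of 3.11 and a −log10 p of 4.77, whereas the TIA1 peaks had log2 folds from 3.10 to 4.69 and −log10 p from 9.01 to 19.2. No TIA1 peak of this locus overlapped RBFOX2. The highest log2 fold there, 4.69, came from a 4-base peak at 47412721 to 47412724, the peak farthest from RBFOX2. The TIA1 peaks stood in 3 groups, at 47412128 to 47412131, 47412277 to 47412312 and 47412662 to 47412724. A further TIA1 peak on this strand, at 47410932 to 47410955 (log2 fold 3.07), lay upstream of the locus. Its gap to the RBFOX2 peak at 47411981 to 47411986 was 1025 bases, just past the limit that defines adjacent peaks and loci. That all TIA1 peaks of the locus lay downstream thus depends on this limit.

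On chromosome 19 (minus strand), 6 adjacent TIA1 peaks surrounded the RBFOX2 peak at 18392095 to 18392110 (log2 fold 3.29, −log10 p 11.2), 5 of them upstream at 18392167 to 18392417 and 1 downstream at 18391974 to 18392023. Their log2 folds ran from 3.01 to 3.86. On chromosome 3 (minus strand), 5 TIA1 peaks surrounded an RBFOX2 peak at 79068414 to 79068462 (3.16, 6.76), with gaps from 4 to 367 bases. TIA1 upstream of it at 79068467 to 79068576 had the highest −log10 p of the 5, 18.2, with a log2 fold of 3.32. The highest log2 fold, 4.24, was downstream at 79068126 to 79068159. At both loci TIA1 flanked the named RBFOX2 peak on either side without a TIA1 peak on that peak itself. The chromosome 19 locus also held a TIA1 peak at 18391786 to 18391856 that overlapped another RBFOX2 peak, at 18391787 to 18391848.

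**Figure D2:**
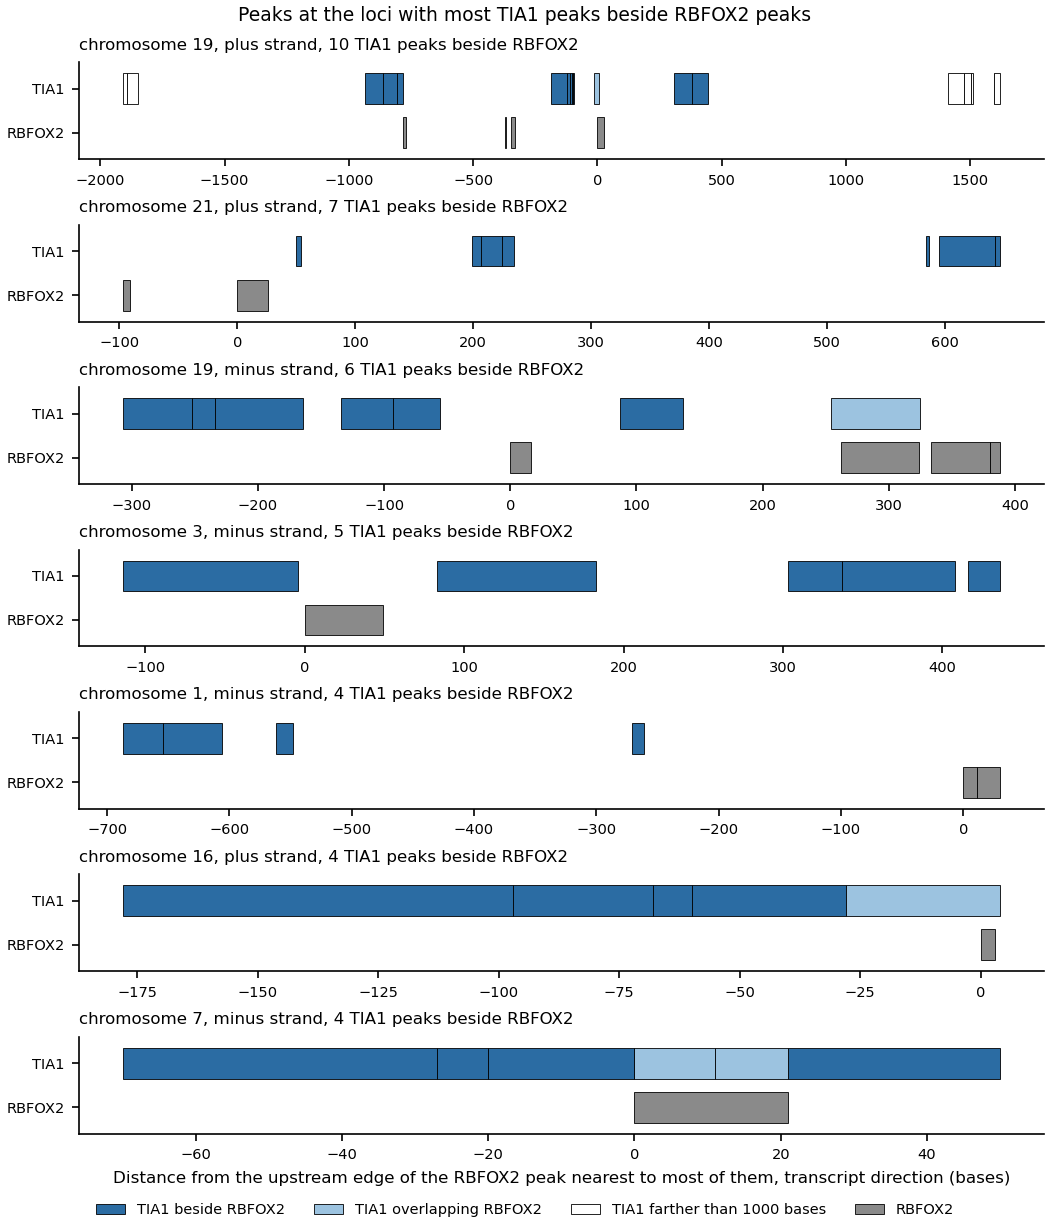
Peaks of TIA1 (upper track) and RBFOX2 (lower track, grey) at 7 loci with 4 to 10 adjacent TIA1 peaks, along the transcript in bases from the upstream edge of the RBFOX2 peak that is nearest to most of them. Dark blue boxes are adjacent TIA1 peaks, pale blue ones overlap RBFOX2 and white ones lie farther than 1000 bases. On chromosome 21 all 7 adjacent peaks lie downstream, while a TIA1 peak with a gap of 1025 bases upstream falls just outside the limit. On chromosomes 1 and 16 all 4 adjacent peaks lie upstream.

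The adjacent peaks of highest −log10 p were concentrated at 5 loci. The deposited −log10 p stops at 400, and 3 adjacent peaks reached it. A pair of these lay on chromosome 1 (minus strand), at 245027771 to 245027803 (log2 fold 4.11, or 17.2-fold) and at 245027723 to 245027770 (3.24). Also at that locus, the peak at 245027665 to 245027678 had 3.07 and a −log10 p of 62.4, and the peak at 245027378 to 245027387 had 3.10 and 47.5. All 4 lay upstream of RBFOX2, with gaps of 654, 606, 548 and 261 bases to a peak at 245027106 to 245027116, which had a log2 fold of 3.06 and a −log10 p of 41.3. The listed TIA1 and RBFOX2 peaks thus lay in separate stretches of this locus. Since peaks with a log2 fold below 3 are not listed, weaker RBFOX2 signal under the TIA1 peaks would not be seen.

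On chromosome 16 (plus strand), TIA1 at 2802671 to 2802751 also reached a −log10 p of 400, with a log2 fold of 3.68 (12.8-fold) and a gap of 97 bases upstream of RBFOX2. The following abutting peaks at 2802752 to 2802780, 2802781 to 2802788 and 2802789 to 2802820 showed log2 folds of 3.48, 3.41 and 3.30 and −log10 p of 79.7, 43.6 and 67.4. One more peak, at 2802821 to 2802852, reached the RBFOX2 peak with a log2 fold of 3.31. That RBFOX2 peak spanned 3 bases, 2802849 to 2802851, with a log2 fold of 3.29 and a −log10 p of 9.67. The log2 fold of TIA1 was highest at the end away from RBFOX2.

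The remaining peaks of this rank were the chromosome 7 pair described above and peaks on chromosomes 4 and 9. On chromosome 4 (minus strand), an 11-base TIA1 peak at 83294731 to 83294741 showed a log2 fold of 3.13 and a −log10 p of 63.0, lying 5 bases downstream of RBFOX2 at 83294747 to 83294755 (3.23, 31.8). On chromosome 9 (plus strand), TIA1 at 131451784 to 131451824 had 3.43 and a −log10 p of 59.1, and lay 105 bases downstream of RBFOX2 at 131451656 to 131451678 (3.33, 53.4). The chromosome 9 peak and its neighbour at 131451825 to 131451841 (log2 fold 3.16) form the downstream tail of a site where TIA1 peaks overlapping RBFOX2 had log2 folds up to 4.84.

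Ranked by fold, the adjacent peaks were others. The highest was on chromosome 12 (plus strand), at 109548471 to 109548537. Its log2 fold was 5.22 (37.3-fold) and its −log10 p 6.0. It lay between RBFOX2 peaks, 216 bases downstream of 109548124 to 109548254 (log2 fold 3.28) and 130 bases upstream of 109548668 to 109548761 (3.10). No other TIA1 peak was within 1000 bases. The next was on chromosome 1 (plus strand), at 23346022 to 23346038, with 4.85 (28.8-fold). It was the middle one of 3 abutting peaks with log2 folds of 4.41, 4.85 and 3.74, and it lay 131 bases upstream of RBFOX2 with 3.33.

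On chromosome 3 (minus strand), TIA1 at 55521290 to 55521373 showed a log2 fold of 4.83 (28.4-fold) and lay 109 bases upstream of RBFOX2 with 3.29. On chromosome 5 (plus strand), TIA1 at 92919926 to 92919967 had 4.75 (26.9-fold) and lay 18 bases downstream of RBFOX2 with 3.66. It stood between overlapping TIA1 peaks with log2 folds of 3.91 and 4.23. No RBFOX2 peak covered it or the first TIA1 peak of that run, at 92919710 to 92919816, which had the lowest log2 fold there, 3.23. The fifth was the chromosome 21 peak with 4.69 (25.8-fold). Of these 5 sites, 3 had TIA1 upstream of the nearest RBFOX2 peak and 2 downstream.

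Fold, −log10 p and width were then set beside those of the other TIA1 peaks. These comparisons carry no test, because a single list without replicates gives no spread between libraries. The median log2 fold was 3.42 in the 359 adjacent peaks (interquartile range 3.19 to 3.68), 3.47 in overlapping peaks (3.23 to 3.81) and 3.32 in those farther away (3.14 to 3.56). The median −log10 p followed the same order, with 8.95 against 9.46 and 6.46. The median width was 55 bases in adjacent peaks, 79 in overlapping and 54 in farther ones. Taken over each whole class, adjacent peaks were thus nearest to farther peaks in width. Log2 folds of 4 or more were found in 32 adjacent peaks, 8.91% (6.18 to 12.4%), against 9.21% of all TIA1 peaks, so this share was near the level of the whole list. The figures were 16.3% (13.8 to 19.1%) among overlapping and 6.63% (5.59 to 7.78%) among farther peaks.

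**Figure D3:**
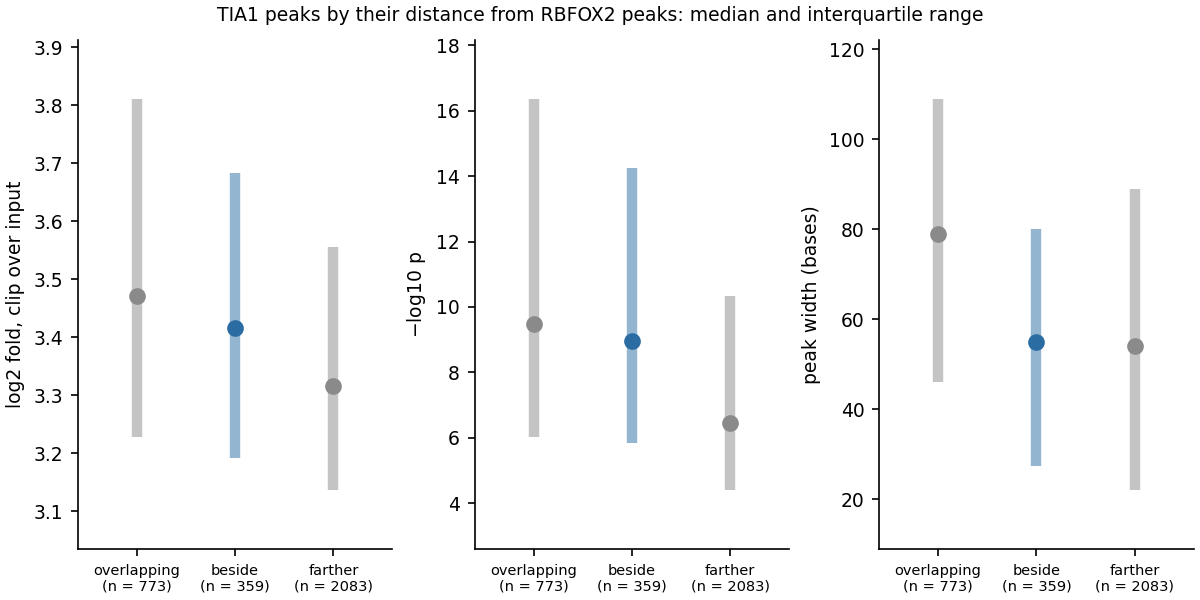
Median (points) and interquartile range (bars) of log2 fold, −log10 p and width in bases for 773 overlapping, 359 adjacent ("beside") and 2083 farther TIA1 peaks. Adjacent peaks lie between the other classes in fold and −log10 p, and near the farther peaks in width.

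The classes also differed in crowding, in another order. Another TIA1 peak lay within 1000 bases of 278 adjacent peaks, 77.4% (72.8 to 81.7%), against 60.4% (56.9 to 63.9%) of overlapping and 47.0% (44.9 to 49.2%) of farther peaks. Abutting peaks of the same run count separately here, so the intervals are narrower than they should be, and the shares were not taken over joined sites. Among peaks with such company the median log2 fold was 3.42 for adjacent, 3.52 for overlapping and 3.34 for farther peaks, and the median −log10 p 10.0, 12.2 and 8.42. Among peaks without it the median log2 fold was 3.41 for 81 adjacent, 3.39 for 306 overlapping and 3.29 for 1103 farther peaks, and the median −log10 p was 5.89, 6.90 and 5.37. The median width was 48.5 bases for adjacent, 65 for overlapping and 33 for farther peaks with company, and 75, 100.5 and 74 without it. In width, adjacent peaks were thus near farther ones only without company, and lay between the other classes with it. The median fold of adjacent peaks hardly moved with crowding and was above that of farther peaks at either level, while their median −log10 p was higher with company. Side made little difference, with median log2 folds of 3.42 upstream and 3.41 downstream and median −log10 p of 8.81 and 9.10.

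Most adjacent peaks had RBFOX2 on a single side within 1000 bases. On both sides it was found for 36, 10.0% (7.12 to 13.6%), and these had a median log2 fold of 3.55 (interquartile range 3.24 to 3.91) against 3.41 (3.19 to 3.66) for the other 323. A single RBFOX2 peak within 1000 bases was found for 184, 51.3%, and 5 or more for 21, 5.85% (3.66 to 8.80%). The interquartile ranges of the 36 and of the 323 overlap widely.

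The RBFOX2 peaks nearest to an adjacent TIA1 peak had low folds within their own list. These 244 RBFOX2 peaks had a median log2 fold of 3.27 (interquartile range 3.12 to 3.48), against 3.50 (3.23 to 3.90) for the other 3983 RBFOX2 peaks. Log2 folds of 4 or more were found in 17 of the 244, 6.97% (4.11 to 10.9%), against 19.3% of all RBFOX2 peaks. Counted from the RBFOX2 side, all 619 RBFOX2 peaks that lay within 1000 bases of a TIA1 peak without overlap had a median log2 fold of 3.42, close to the 3.48 of the whole list, and 99 of them, 16.0% (13.2 to 19.1%), reached 4. The low folds thus belonged to the RBFOX2 peaks nearest to an adjacent TIA1 peak, not to all that lay beside TIA1. The 619 also include peaks whose nearest TIA1 peak itself overlapped RBFOX2. The −log10 p of the 244 was not low, with a median of 7.76 against 6.73 for the other 3983. RBFOX2 peaks that also overlapped TIA1 (111 of the 244) had a median log2 fold of 3.26, and those that did not had 3.28. At loci with several RBFOX2 peaks, the 116 nearest to an adjacent TIA1 peak had 3.26 and the 258 others 3.47. Both medians pool peaks over loci and were not compared within each locus, so loci with many RBFOX2 peaks weigh more. A single locus on chromosome 1 held 26 RBFOX2 peaks, with log2 folds up to 5.02, and 1 adjacent TIA1 peak. At loci with a single RBFOX2 peak, where no choice was possible, the median of the 128 was 3.28. All 502 RBFOX2 peaks at loci with an adjacent TIA1 peak had 3.34. Whether the choice of the nearest peak plays a part was not tested.

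Within pairs, TIA1 had the higher log2 fold in 232 of 359 cases, 64.6% (59.4 to 69.6%). The folds of the proteins come from separate experiments, each with its own input, so they are not on a common scale. Over the whole lists the median log2 fold was 3.36 for TIA1 and 3.48 for RBFOX2. The median difference (TIA1 minus RBFOX2) was 0.10, with an interquartile range of -0.11 to 0.41. Because 185 of the 359 TIA1 peaks share their nearest RBFOX2 peak, the interval is narrower than it should be. In the 59 single pairs TIA1 had the higher log2 fold in 32. Across all pairs the folds of neighbours had a Spearman's rho of 0.062 (Pearson's r 0.013, n = 359), and their −log10 p a rho of 0.48 (r 0.37). With 1 TIA1 peak kept per RBFOX2 peak, rho was 0.082 for fold and 0.43 for −log10 p (n = 244). In the 59 single pairs rho was higher for fold, 0.28 (r 0.25), and 0.44 for −log10 p (r 0.49). These relations run across peaks of the same 2 lists, neighbours lie on the same strand within 1000 bases, and the number of reads behind each peak is unknown. The log2 fold of TIA1 was not related to the gap (rho -0.037, n = 359).

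**Figure D4:**
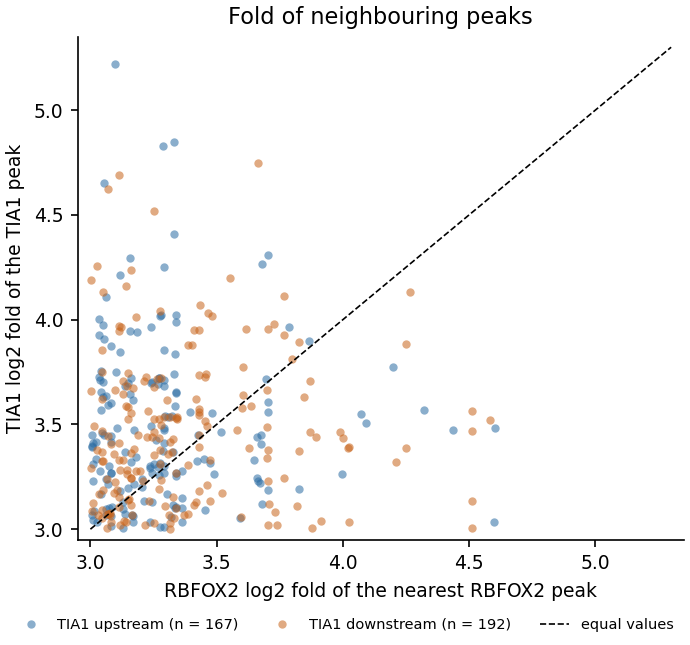
TIA1 log2 fold of each adjacent TIA1 peak (y axis) against the RBFOX2 log2 fold of its nearest RBFOX2 peak (x axis), blue where TIA1 lies upstream and orange where it lies downstream. The dashed line marks equal values, and 232 of 359 points lie above it.

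Adjacent peaks occurred on 23 chromosomes, with 44 on chromosome 1, 30 on chromosome 19 and 25 on chromosome 16. As a share of each chromosome's TIA1 peaks they ranged from 4.0% on chromosome 13 (2 of 50) to 23.9% on chromosome 21 (21 of 88). The 21 peaks of chromosome 21 came from 8 loci, of which the 7-peak locus described above was the largest. Chromosome 19 had 10.8%, close to the 11.2% of the whole list, with 30 peaks in 11 loci. The plus strand held 179 of the 359 peaks, 49.9%.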

How the data were processed

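TIA1 and RBFOX2 eCLIP from HEK293T cells was used as 2 deposited peak lists, each joining the 2 clip and 2 input libraries of its protein. The submitters' processing notes name UMI-tools 1.0.0, cutadapt 1.14, STAR 2.4.0i, SAMtools 1.6 and hg19, with no roles. No source used here names the peak caller. The authors deposited a −log10 p and a log2 fold for each peak in files without headers. Both units were inferred from the ranges (log2 fold never below 3.00, −log10 p from 3.01 to 400), and clip over input was taken as the direction of the fold. Weaker peaks are not seen.

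Gaps were the bases between edges on the same strand, and sides were read in transcript direction (Python 3.11.15, pandas 2.3.3, scipy 1.17.1). Coordinates are 1-based. Placement was tested on simulated data, where 302 of 302 planted sides and gaps were recovered. The simulated peaks stood beside isolated RBFOX2 anchors, so the choice between close RBFOX2 peaks, met by 175 adjacent peaks, was not part of it. For all 3215 real TIA1 peaks the overlap, gap or lack of a neighbour matched bedtools 2.31.1. Sides were not compared with bedtools. Intervals are 95% Clopper-Pearson and cover counting error only. No test was made, since the lists hold no value per library. Named sites are the adjacent peaks with the 10 highest −log10 p, the 5 highest log2 folds, the 5 smallest gaps above 0, the 5 largest gaps, the 5 abutting peaks of highest −log10 p and the 5 RBFOX2 peaks nearest to most TIA1 peaks; other peaks of their loci and the single pairs were chosen after their values were seen. Ties in gap were broken by −log10 p, and ties in −log10 p by log2 fold. The peaks and rules were chosen with earlier results of these data known. Planned work on gene location, motifs and gene lists needs an hg19 reference and was not done. Alternatives are given in the closing section.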

Additional observations from a re-analysis of the deposited data

How the results depend on the processing

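The upstream share stayed within the interval of the reported value under all 10 alternatives, from 42.7% (peaks under 20 bases left out) to 50.0% (log2 fold of at least 4). The first of these had an interval of 36.8 to 48.7%, the only one of the 10 that leaves out equal numbers. Also within its interval was the share with a log2 fold of at least 4 under all 9 of its alternatives, from 7.79 to 11.2%. Requiring a log2 fold of at least 4 in both lists left 16 adjacent peaks, with a median gap of 32.5 bases and, by construction, a higher median log2 fold of 4.31. Joining peaks within 50 bases left 197, with a median gap of 145 bases; the causes were not tested separately. A limit of 500 bases lowered the median gap to 69 bases by construction, and keeping 1 TIA1 peak per RBFOX2 peak, the closest, to 56. Apart from the settings that left 16 and 197, the number of adjacent peaks ran from 244 to 396. Apart from the setting that gave 4.31, the median log2 fold ran from 3.39 to 3.45. Leaving out the 3 loci with most adjacent peaks, chosen after seeing the data, left 336 and an upstream share of 45.8%. No paired analysis was possible because the lists merge replicates and give no values for single libraries, which also means that leaving out a replicate was not possible. Depth is unknown, so the lack of an RBFOX2 or TIA1 peak does not show a lack of binding.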
